A study of Mus musculus with 14 samples.

Results

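CTCF is a zinc-finger protein that binds a long, fairly fixed DNA motif and, together with cohesin, holds the bases of chromatin loops. In mouse embryonic stem cells it binds many sites that are shared with other tissues and a smaller number that come and go during differentiation, often near promoters and enhancers. The K20R protein carries arginine in place of lysine 20, a residue outside the zinc fingers, and arginine cannot be acetylated. At the sites described here, CTCF was called in wild-type (WT) stem cells and not in K20R stem cells. In K20R cells these sites were called after 4 days of differentiation. They were chosen by peak calls alone: peaks of all 8 CTCF lists that overlapped by 1 bp or more were merged, and a site was taken if it had a peak in both WT lists of day 0, in neither K20R list of day 0 and in at least 1 K20R list of day 4. This gave 899 regained sites of 86652 sites in all. The word regained names this pattern of calls, as K20R had no call at these sites before day 4.

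All samples came from the mouse embryonic stem cell line E14Tg2A, in which lysine 20 of CTCF had been changed to arginine with CRISPR/Cas9 for the K20R genotype. Day 0 (D0) samples were stem cells grown in serum with leukemia inhibitory factor and the 2i inhibitors on mitomycin C-inactivated mouse embryo fibroblasts, so a day 0 library can hold chromatin of feeder cells. Day 4 (D4) samples were embryoid bodies, aggregates grown in hanging drops without leukemia inhibitory factor, so each library pooled many differentiating cells. CTCF chromatin immunoprecipitation sequencing (ChIP-seq) had 2 libraries per genotype and day, and ChIP-seq of H3K27ac, a histone mark of active promoters and enhancers, had 1 library per genotype at day 4 and no replicate. How many cell clones stand behind each genotype is not given in the labels, so genotype and clone cannot be told apart.

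The CTCF lists held between 41360 and 77657 peaks, the shortest being D4 K20R replicate 1 and the longest D0 WT replicate 1, which was much longer than the 52698 peaks of its partner. Because each peak's fold enrichment and p-value follow from its read pileup and local background, the reads at a summit could be solved for peaks with a −log10 p below 200, and this covered every called summit of the regained sites. The lowest background lay between 0.717 and 0.757 reads in all 8 lists, and the smallest called summit held 5 reads in each. On chromosome 14 from 40 to 70 Mb, the 455 sites called in all 8 lists ranked lower in K20R than in WT by a median of -19.5 percentile points at day 0 and -23.9 at day 4, against -4.86 and -8.73 outside that segment and chromosome 8 from 80 to 110 Mb. Of the regained sites, 17 lay in the chromosome 14 segment and 8 in that of chromosome 8.

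The CTCF motif learned from the strongest D0 WT peaks had the consensus CGGCCACCAGGGGGCGCTG, and within 100 bp of the summit 613 of the 899 regained sites (68.2%, 95% Wilson interval 65.1 to 71.1) held a match, against 76.4% of all sites and the 5% of sequences 1 kb away that set the threshold. Wilson intervals here treat sites as independent and cover counting error only, not the spread between libraries. The first 5 sequences are those of the sites with the highest mean rank of fold enrichment in the D0 WT lists, shown because WT binding ranked highest there, and they do not stand for the whole set. Each is given 5′ to 3′ on the strand of the motif, with the motif match in capitals and 50 bp on each side, from the GRCm38 (mm10) reference sequence of RefSeq. In order they lie at chr7:80741127-80741245 (minus strand, an intron, 10631 bp from the start of the antisense transcript Gm44649), chr14:61085485-61085603 (minus strand, between genes, 39036 bp from Tnfrsf19), chr14:55025656-55025774 (plus strand, between genes, 10283 bp from Ngdn), chr5:124555299-124555417 (minus strand, an intron, 2430 bp from Ddx55) and chr5:144793522-144793640 (minus strand, an intron, 19094 bp from the small nucleolar RNA gene Gm23995 and 22369 bp from Trrap).
Gm44649: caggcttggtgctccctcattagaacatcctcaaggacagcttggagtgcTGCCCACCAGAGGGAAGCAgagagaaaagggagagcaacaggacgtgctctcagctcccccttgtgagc
Tnfrsf19: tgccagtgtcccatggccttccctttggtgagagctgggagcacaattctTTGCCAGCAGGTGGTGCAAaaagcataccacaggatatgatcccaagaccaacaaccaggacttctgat
Ngdn: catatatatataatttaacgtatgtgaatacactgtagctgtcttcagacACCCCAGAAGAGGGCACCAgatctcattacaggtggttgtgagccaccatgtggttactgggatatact
Ddx55: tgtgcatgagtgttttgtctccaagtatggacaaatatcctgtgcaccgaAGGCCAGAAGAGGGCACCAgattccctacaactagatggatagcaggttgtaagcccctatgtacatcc
Gm23995: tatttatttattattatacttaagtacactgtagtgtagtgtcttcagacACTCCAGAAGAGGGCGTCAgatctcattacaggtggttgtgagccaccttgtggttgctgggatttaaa
Those near Ngdn, Ddx55 and Gm23995 share the letters CCAGAAGAGGGC inside the match, and their matches, like that near Gm44649, lay in sequence masked as a repeat in the reference. Copies of short interspersed repeats are known to have carried CTCF motifs through rodent genomes. These 12 letters, searched on both strands within 100 bp of the summit and chosen after the sequences were seen, occurred at 125 of the 899 regained sites (13.9%, interval 11.8 to 16.3). They occurred at 20.8% of the other day 0 losses (interval 19.4 to 22.3) and at 21.6% of all sites.

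The second set of sequences belongs to the 5 regained sites called in both D4 K20R lists and in neither D4 WT list, shown because CTCF was called there in K20R and not in WT. They lie at chr19:6855408-6855526 (minus strand, an exon, 2753 bp from a start of Ccdc88b), chr11:101246295-101246313 (minus strand, an exon 136 bp from a start of Ramp2, motif match only because the window reaches an untranslated region), chr8:89025665-89025783 (minus strand, between genes, 991 bp from Mir8110 and 18436 bp from Sall1, a zinc-finger transcription factor gene) and chr3:63706412-63706530 (minus strand, an intron, 63747 bp from the small nuclear RNA gene Gm23500).
Ccdc88b: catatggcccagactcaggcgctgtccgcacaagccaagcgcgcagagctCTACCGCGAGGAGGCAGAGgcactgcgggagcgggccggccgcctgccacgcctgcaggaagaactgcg
Ramp2: CGGGCTGCAGGGGGAGTCA
Mir8110: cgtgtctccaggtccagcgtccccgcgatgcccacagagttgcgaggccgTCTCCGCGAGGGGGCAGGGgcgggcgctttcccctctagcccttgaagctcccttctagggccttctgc
Gm23500: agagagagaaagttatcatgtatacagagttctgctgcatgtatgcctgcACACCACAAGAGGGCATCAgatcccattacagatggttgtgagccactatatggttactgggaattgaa
The remaining site of this kind lay in an exon 21 bp from a start of Cad, the gene of the enzyme that begins pyrimidine synthesis, and no motif match passed the threshold there.

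At the site near Gm44649, the strongest of all, the summit held 63 and 30 reads in the D0 WT libraries, was called in neither D0 K20R list, held 53 and 51 reads in D4 WT and 16 and 23 reads in D4 K20R. K20R was called at day 4 with fewer reads than either WT library. The site near Tnfrsf19, a receptor of the tumour necrosis factor family, held 34 and 24 reads in D0 WT, 22 and 27 in D4 WT and 8 and 8 in D4 K20R. The site near Ngdn held 36 and 20 reads in D0 WT, 31 and 28 in D4 WT and 7 in D4 K20R replicate 2, with no call in replicate 1. Both of these lie in the chromosome 14 segment where K20R ranks were low. The site in an intron near Ddx55, an RNA helicase gene, held 36 and 18 reads in D0 WT, 24 and 12 in D4 WT and 9 in D4 K20R replicate 1 alone. The site near Gm23995 held 41 and 24 reads in D0 WT, 17 and 19 in D4 WT and 8 in D4 K20R replicate 1 alone. At each of the 5 sites every D4 WT value lay above every D4 K20R value.

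The sites that came back strongest were mostly others. Ranked by D4 K20R, the highest was in an intron 439 bp from the long noncoding RNA gene Gm26859 and 2691 bp from Syt7, a calcium sensor of vesicle fusion, on chromosome 19. It held 12 and 13 reads in D0 WT, 62 and 52 in D4 WT and 28 and 58 in D4 K20R, so both genotypes had more reads at day 4 than WT had at day 0, and at day 4 they overlapped. The site 1604 bp from Zfp335os, antisense to the zinc-finger gene Zfp335, held 17 and 10 reads in D0 WT, 60 and 53 in D4 WT and 12 and 33 in D4 K20R. The site near Dexi held 13 and 9 reads in D0 WT, 31 and 25 in D4 WT and 15 and 30 in D4 K20R. There too the genotypes overlapped at day 4. The site near Gm12802 held 30 and 21 reads in D0 WT, 48 and 39 in D4 WT and 17 and 32 in D4 K20R, and that near Ccdc42os held 19 and 14, then 28 and 35, and 17 and 23 in the same order. At these sites, and near Zfp335os, each D4 WT library lay above both K20R libraries.

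The 5 sites called in both D4 K20R lists and in neither D4 WT list were weak throughout. The site at Cad held 8 and 11 reads in D0 WT and 8 and 16 in D4 K20R. The site near Ccdc88b held 12 and 7 reads in D0 WT and 6 and 16 in D4 K20R, and the site near Ramp2, which encodes a partner of the adrenomedullin receptor, held 8 and 7, then 8 and 9. Near Mir8110 the values were 11 and 9 in D0 WT and 10 and 8 in D4 K20R, and near Gm23500 they were 12 and 7, then 8 and 8. The Mir8110 site lies in the chromosome 8 segment. No site of the 5 exceeded 16 reads in a library that called it, and no reads could be had from the libraries without a call.

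**Figure D1:**
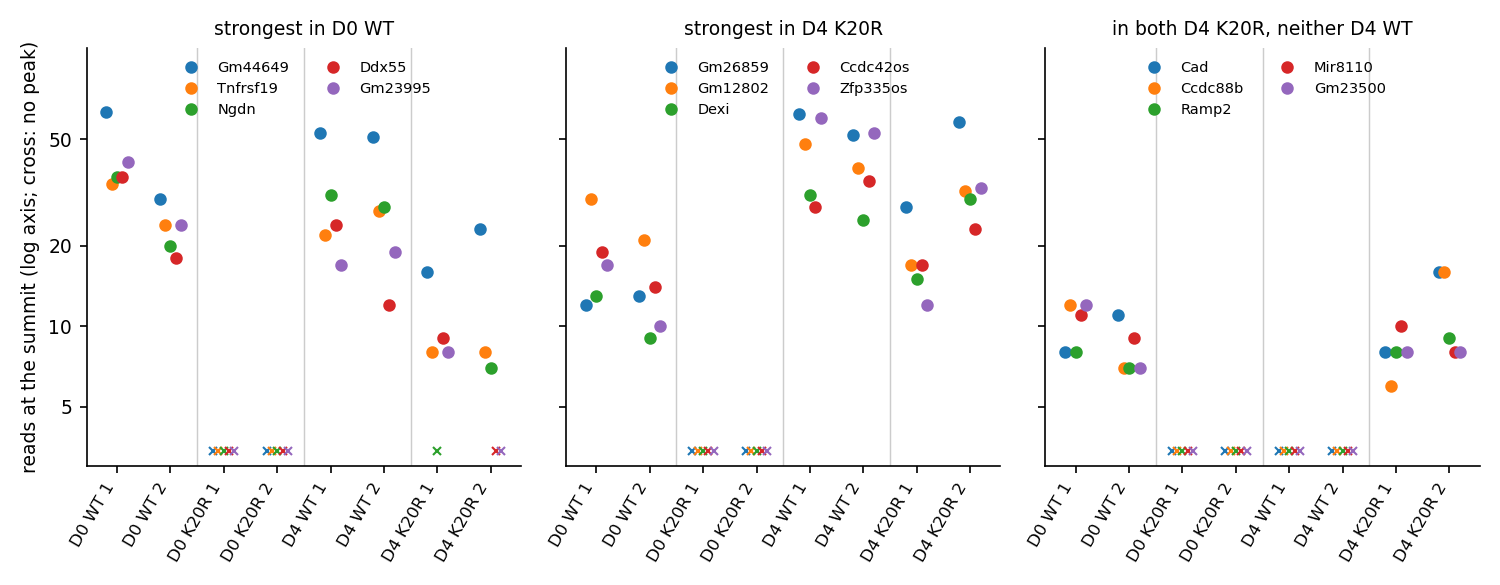
Reads at the summit (log axis) in each of the 8 CTCF libraries for 3 sets of 5 regained sites: the strongest in D0 WT, the strongest in D4 K20R, and those called in both D4 K20R and neither D4 WT list. Crosses mark lists without a peak, and no D0 K20R library has one because the rule required it. In the left panel every called D4 WT summit lies above the D4 K20R summits of its site, and in the right panel no point exceeds 16 reads.

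Over all 899 regained sites the WT peaks of day 0 were weak to middling. Their reads ranged from 6 to 63 with a median of 16 in D0 WT replicate 1, and from 5 to 30 with a median of 10 in replicate 2. The median site ranked at percentile 26.4 of fold enrichment within the D0 WT lists, averaged over both, against 65.0 for sites called in all 4 day 0 lists. A median of 10 reads has an exact 95% Poisson interval of 4.80 to 18.4 reads, which covers counting error only and includes the 5 reads of the smallest called summit. The lower bound stayed above 5 reads in both D0 WT libraries at 393 of the 899 sites (43.7%). At the others the WT reads of at least 1 library were within counting error of that smallest summit. Because these calls chose the sites, they are a description. Just inside the rule, the weaker of the D0 WT peaks reached a −log10 q of 1.39 at the least and 5.77 at the median. Just outside it, 1485 sites that otherwise met the rule had a peak in exactly 1 D0 K20R list, with a median of 11 reads and a median −log10 q of 6.90 there, and 1430 sites missed a call in 1 D0 WT list, 1319 of them in replicate 2.

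Day 0 losses, which are sites in both WT lists and neither K20R list, numbered 3903 or 4.50% of all sites. Of these, 899 were called in K20R at day 4 (23.0%, 95% Wilson interval 21.7 to 24.4). Over all sites, 56.5% had a call in at least 1 D4 K20R list. The share of losses regained was 8.42% without D4 K20R replicate 2, 9.62% without D0 WT replicate 2 and 48.2% when every list was cut to the same length. The share was higher where WT was stronger at day 0. It was 13.7% (144 of 1049, interval 11.8 to 15.9) where the D0 WT libraries averaged under 10 reads, 21.5% (431 of 2002) from 10 to under 15, 35.6% (235 of 660, interval 32.0 to 39.3) from 15 to under 20, and 46.1% (77 of 167, interval 38.7 to 53.7) from 20 to under 25. With 25 or more reads it was 48.0% (12 of 25, interval 30.03 to 66.5). Sites that K20R had held at day 0 were called in K20R at day 4 more often in each of these ranges, from 48.9% below 10 reads to 87.9% from 20 to under 25. Above that the range is open, and the held sites in it reach far more reads than the 25 losses. In the opposite direction, 200 sites were called in both D0 K20R lists and neither D0 WT list, and 68 of them (34.0%, interval 27.8 to 40.8) were called in at least 1 D4 WT list. That is below the share over all sites, of which 63.5% were in both D4 WT lists and a further 12.8% in 1.

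**Figure D2:**
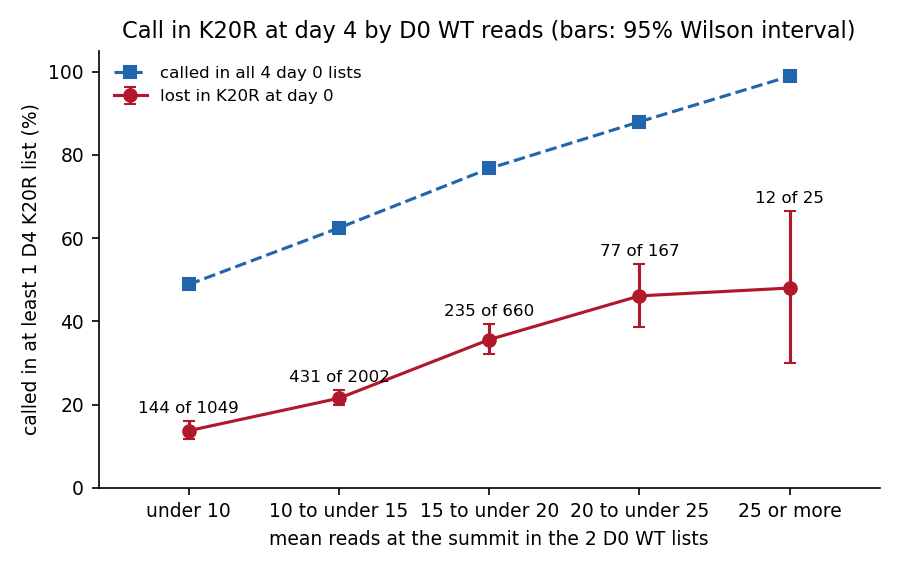
Share of sites called in at least 1 D4 K20R list (%) against the mean reads at the summit in the D0 WT libraries. Circles are day 0 losses with 95% Wilson intervals and counts, rising from 13.7% to 48.0%. Squares are sites called in all 4 day 0 lists, which lie higher in every range.

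The K20R calls at day 4 came mostly from 1 library. Replicate 2 held 783 of the regained sites and replicate 1 held 329, with 570 in replicate 2 alone, 116 in replicate 1 alone and 213 in both (23.7%, interval 21.0 to 26.6), against 45.0% of all sites. The rule required at least 1 D4 K20R call, which 48933 of all sites had. Of those 48933 sites, 39018 were in both D4 K20R lists, a far larger share than among the regained sites. Without replicate 2 there would have been 329 regained sites, and without replicate 1 there would have been 783. Among day 0 losses, a call in one library was more frequent where the other had a call. Even so, fewer calls were shared than among all sites with a D4 K20R call. Of the day 0 losses called in D4 K20R replicate 1, 64.7% (213 of 329, interval 59.4 to 69.7) were called in replicate 2, against 15.9% of those not called in replicate 1 (interval 14.8 to 17.2). Read the other way, 27.2% (213 of 783) of losses called in replicate 2 were called in replicate 1, against 3.72% of the rest. Choosing on 1 replicate of each group and reading in its partner showed how much of the pattern carried over. Of 1395 sites in D0 WT and D4 K20R but not in D0 K20R by replicate 1, 47.8% were called in the second D0 WT library and 55.8% in the second D4 K20R library, while 40.6% were called in the second D0 K20R library and so were not lost there. The same choice by replicate 2 gave 1579 sites, of which 91.2% were called in D0 WT replicate 1, 30.3% in D4 K20R replicate 1 and 43.9% in D0 K20R replicate 1.

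WT at day 4 was not used in the choice. Both D4 WT lists called 712 of the 899 regained sites (79.2%, interval 76.4 to 81.7), against 63.5% of all sites. Among all sites in both D0 WT lists, as the regained sites had to be, the share was higher, at 89.4% (45379 of 50765). It was 41.1% (1234 of 3004, interval 39.3 to 42.8) among the other day 0 losses and 94.8% among sites called in all 4 day 0 lists. At the WT strength of the regained sites, weighted over its deciles, these became 48.2% and 73.2%. A further 101 regained sites were in 1 D4 WT list and 86 (9.57%, interval 7.81 to 11.7) were in neither, against 5.75% of all sites in both D0 WT lists and 38.3% of the other losses. Put differently, 36.6% of day 0 losses that WT held in both day 4 lists were regained in K20R (712 of 1946, interval 34.5 to 38.8), 14.01% of those in 1 D4 WT list and 6.96% of those in neither (86 of 1236, interval 5.67 to 8.51). Of the 213 sites in both D4 K20R lists, 203 were in both D4 WT lists (95.3%, interval 91.6 to 97.4).

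**Figure D3:**
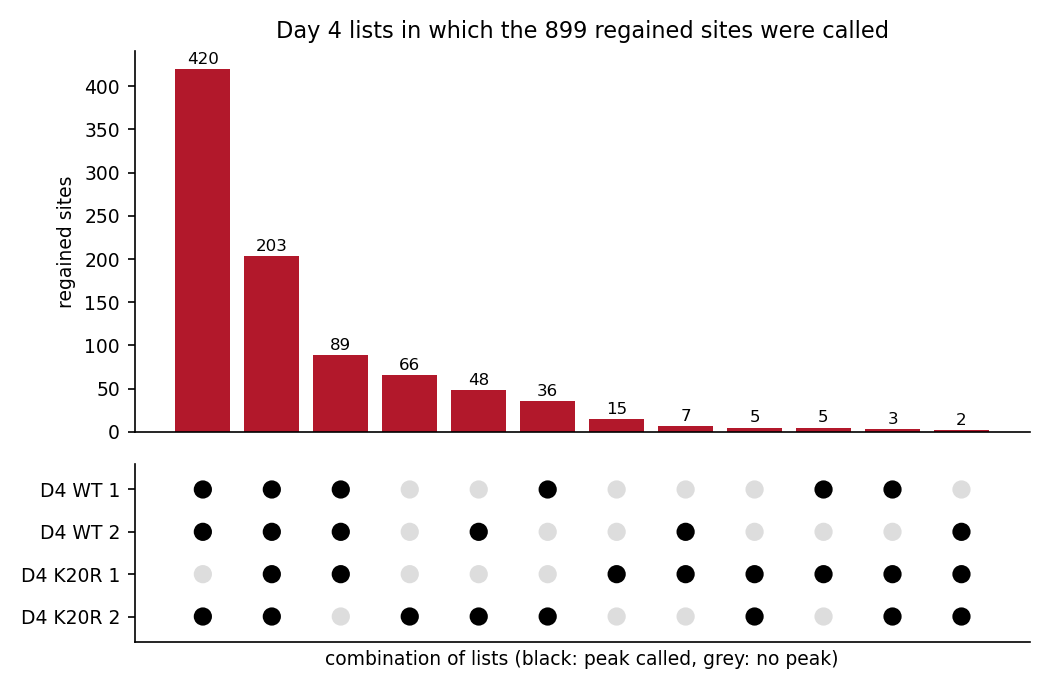
Number of the 899 regained sites (bars) for each combination of day 4 lists marked under it, where black marks a peak and grey none. The most frequent combination is both WT lists with K20R replicate 2 alone (420 sites), followed by all 4 lists (203 sites), and 5 sites have both K20R lists and no WT list.

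Where both genotypes had a call at day 4, the K20R peak was mostly the lower. Averaged over the libraries with a call, K20R had fewer reads than WT at 693 of 813 such sites, as many at 32 and more at 88. Only 1 D4 K20R library had a call at 686 regained sites, so most of these K20R means rest on 1 library. The same count was not made over all sites called in both genotypes at day 4. At the 203 regained sites called in all 4 day 4 lists, the median was 20 reads in each D4 WT library, 9 in D4 K20R replicate 1 and 12 in replicate 2. The K20R mean was 0.567 of the WT mean at the median site (10th to 90th percentile 0.364 to 0.852), and it was above WT at 5 sites (2.46%). For comparison, 6574 sites called in all 8 lists had mean D4 WT reads between 16 and 26, the middle 50% of those regained sites. Their median ratio was 0.918 (10th to 90th percentile 0.558 to 1.47), and K20R was above WT at 40.7%. Within the same range the 101 regained sites had a median ratio of 0.559 and none was above WT. Without that range, 31418 sites called in all 8 lists could be compared. K20R was above WT at 58.3% of them, with a median of 36 reads in each D4 WT library. Sites without solved reads were left out, and most of these lacked them in D4 K20R replicate 2. That library had solved reads at 31419 sites called in all 8 lists, against 36234 in replicate 1 and 36369 and 36379 in D4 WT. The D4 K20R calls took part in the choice. The comparison sites were also called in both D0 K20R lists and the regained sites in neither. The classes thus differed in K20R by choice before day 4 was read, and the ratio is given without a test. Over all regained sites the D4 WT libraries had a median of 16 reads each at the 756 and 769 sites called, as D0 WT replicate 1 had, and the K20R libraries had medians of 9 and 10. The highest regained summit held 28 reads in D4 K20R replicate 1 and 58 in replicate 2.

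**Figure D4:**
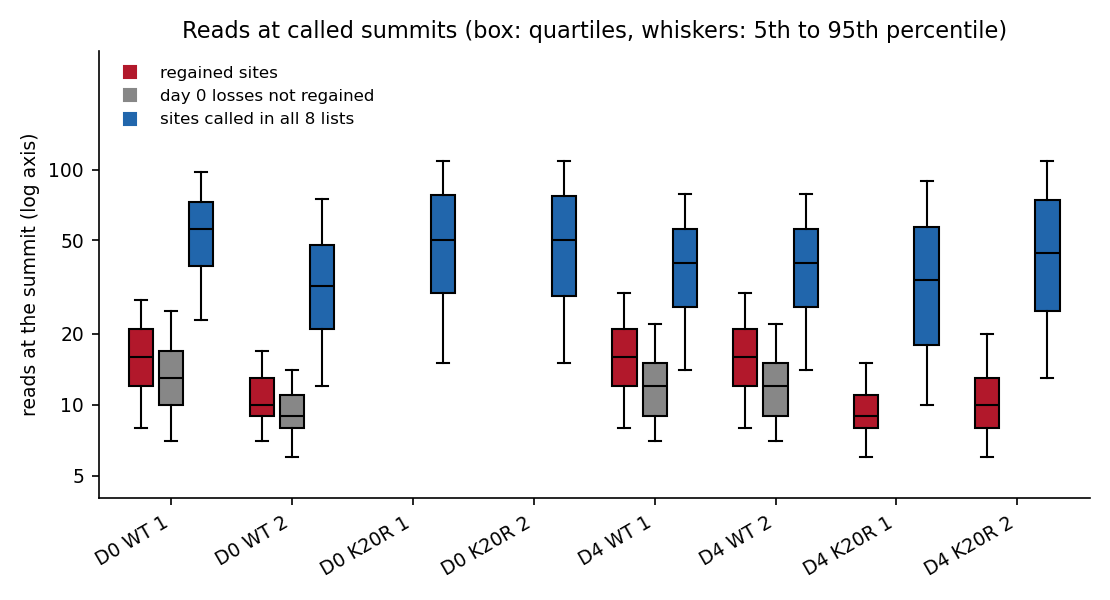
Reads at called summits (log axis) in each of the 8 CTCF libraries for the 899 regained sites, the other day 0 losses and sites called in all 8 lists for which reads could be solved. Boxes are quartiles and whiskers run from the 5th to the 95th percentile. The regained sites have medians of 16 and 10 reads in D0 WT, 16 and 16 in D4 WT and 9 and 10 in D4 K20R, and no boxes in D0 K20R because the rule excluded calls there.

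Merging placed the regained peaks close to the WT peaks by construction, and in 890 of the 899 sites a D4 K20R peak directly overlapped a peak of each D0 WT list. The median distance from the D0 WT replicate 1 summit was 29 bp for D4 K20R replicate 1 and 30 bp for replicate 2, against 27 bp between the D0 WT libraries themselves at the same sites and 15 bp at sites called in all 4 day 0 lists. Of 879 neighbouring pairs on a chromosome, 12 lay within 10 kb of each other and 90 within 100 kb, and the median gap was 1031 kb. They made up between 1.18% (chromosome 8) and 2.44% (chromosome 11) of the D0 WT sites of an autosome, 1.28% on chromosome X (15 sites), and none of 17 on chromosome Y, which allows a share of up to 18.4% by the Wilson interval.

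Promoters were where the regained sites differed most in position. A start site lay within 3 kb of 325 of them (36.2%, interval 33.1 to 39.3), against 24.2% of all sites, 21.8% of the other day 0 losses (interval 20.3 to 23.3) and 22.9% of sites called in all 4 day 0 lists. Weighting those classes to the WT strength of the regained sites gave 20.9% and 28.5%. Of day 0 losses near a start site, 33.2% were regained (325 of 979, interval 30.3 to 36.2), and of the others 19.6% (574 of 2924, interval 18.2 to 21.1). The values of 1 library moved with this. In D4 K20R replicate 2, 30.8% of the peaks in the lowest 30% by fold enrichment lay within 3 kb of a start site, against 24.1% to 26.7% in the 7 other lists. Of regained sites called in replicate 2 alone 38.2% were near a start site (218 of 570, interval 34.3 to 42.3), of those in replicate 1 alone 18.97% (22 of 116, interval 12.9 to 27.05) and of those in both 39.9% (85 of 213, interval 33.6 to 46.6). Without replicate 2 the share was 32.5% (interval 27.7 to 37.8) for 329 regained sites and 24.5% for the other losses. The part of that library in the difference was not tested.

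H3K27ac, measured at day 4, was compared over the same sites. A D4 WT H3K27ac peak overlapped 192 regained sites (21.4%, interval 18.8 to 24.2), against 11.9% of all sites and 10.1% of the other losses (interval 9.09 to 11.2). A D4 K20R H3K27ac peak overlapped 208 (23.1%, interval 20.5 to 26.0), against 14.6% of all sites and 12.4% of the other losses (interval 11.2 to 13.6). Sites called in all 4 day 0 lists had 11.5% for WT and 14.9% for K20R H3K27ac. Weighted to the WT strength of the regained sites, these became 14.8% and 17.5%, and those of the other losses 8.76% and 10.9%. The K20R list was longer, with 45318 peaks against 38982. Peak names inside it do not name a genotype, which was taken from the sample's label. Without D4 CTCF K20R replicate 2 the shares were 17.9% for WT H3K27ac (interval 14.2 to 22.4, other losses 12.2%, 11.2 to 13.4) and 17.3% for K20R H3K27ac (interval 13.6 to 21.8, other losses 14.6%, 13.5 to 15.8), so the intervals of the latter overlapped. Of sites called in replicate 1 alone 6.90% had H3K27ac in both genotypes, and of those in replicate 2 alone 20.5%. Both genotypes carried the mark at 163 regained sites (18.1%, against 9.68% of all sites). WT alone carried it at 29 (3.23%, against 2.22% of all sites) and K20R alone at 45 (5.01%, against 4.92%). Of the 163 sites, 120 were near a start site. Losses marked in both genotypes were regained in 41.1% of cases (163 of 397, interval 36.3 to 46.0), and losses marked in neither in 20.5% (662 of 3225, interval 19.2 to 22.0).

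Lists cut to one length gave lower shares near a start site and with H3K27ac, at mostly other sites. When every list was cut to the 41360 peaks with the highest −log10 p, 576 sites met the rule, of which 82 overlapped the 899. Of those 576, 26.0% (interval 22.6 to 29.8) were near a start site. WT H3K27ac overlapped 12.3% (interval 9.89 to 15.3) and K20R H3K27ac 13.7% (interval 11.1 to 16.8). The 619 other losses under that setting had 19.1% (interval 16.2 to 22.3), 5.98% (interval 4.37 to 8.13) and 7.27% (interval 5.48 to 9.59). The sites that met the rule were thus still above the other losses in each share.

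Among promoter sites marked by H3K27ac in both genotypes, the strongest in D0 WT lay 1091 bp from the start of Lrp1, an endocytic receptor of the low-density lipoprotein receptor family, on chromosome 10. It held 22 and 17 reads in D0 WT, 32 and 43 in D4 WT and 17 and 39 in D4 K20R, so the genotypes overlapped at day 4. The site 1081 bp from Fam57b on chromosome 7 held 29 and 15, then 19 and 21, and 8 and 16 in the same order. The site 1281 bp from Snx11, a sorting nexin gene, held 26 and 18 reads in D0 WT, 17 and 24 in D4 WT and 15 in D4 K20R replicate 2 alone. A second site at Ddx55, 206 bp from a start, held 20 and 18 reads in D0 WT, 28 and 29 in D4 WT and 16 in D4 K20R replicate 2 alone. The site 51 bp from Grpel2, which encodes a mitochondrial cochaperone, held 23 and 12 reads in D0 WT, 10 and 8 in D4 WT and 8 and 9 in D4 K20R. There the D4 libraries of both genotypes overlapped and both lay below D0 WT.

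The site near Gm44649 was also the strongest with H3K27ac in WT alone, followed by those near Sbno2 and Axin2. The site in an intron 5740 bp from Axin2, a Wnt target gene that restrains the pathway, held 20 and 17 reads in D0 WT, 17 and 28 in D4 WT and 9 and 14 in D4 K20R. The site 64 bp from Sbno2 held 20 and 17 reads in D0 WT, 20 and 21 in D4 WT and 13 in D4 K20R replicate 2 alone. With H3K27ac in K20R alone, the strongest lay near Ccpg1os, Bcl2l15, a gene of the BCL2 family, and Rnf121, a ubiquitin ligase gene. They held 24 and 14, 32 and 12, and 24 and 12 reads in D0 WT, and 12, 12 and 9 reads in D4 K20R replicate 2, with no call in replicate 1. D4 WT called the first at 23 and 16 reads and the second at 29 and 24, and replicate 1 alone called the Rnf121 site, at 14 reads. With 1 H3K27ac library per genotype these differences in the mark have no replicate check.

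The regained sites held the motif about as often as the other day 0 losses but differed from them in repeats, CpG and base composition. The motif share of 68.2% compared with 66.0% of the other losses (interval 64.3 to 67.7) and 87.7% of sites called in all 4 day 0 lists, which became 68.5% and 77.0% at matched strength. With the threshold that 1% of sequences 1 kb away pass, the shares were 26.9%, 25.2% and 59.3%. The match lay at a median of 17 bp from the summit at regained sites, 20 bp at other losses and 14 bp at sites called in all 4 day 0 lists. Where a match was found, it lay in a masked repeat at 209 of 613 regained sites (34.1%, interval 30.5 to 37.9). The share was 49.3% at the other losses (interval 47.1 to 51.5), 33.2% at sites called in all 4 day 0 lists and 44.0% at all sites. At matched strength the other losses had 46.5% and the sites called in all 4 day 0 lists 49.5%. The match held a CpG at 35.6% of regained sites (interval 31.9 to 39.4). That compared with 29.5% (interval 27.5 to 31.5) of other losses and 45.8% of sites called in all 4 day 0 lists. A CpG is a dinucleotide whose methylation is known to hinder CTCF binding at some motif positions. Losses with a match outside repeats were regained in 28.7% of cases (404 of 1409, interval 26.4 to 31.1), and those with a match in a repeat in 17.6% (209 of 1187, interval 15.5 to 19.9). The guanine and cytosine content within 100 bp of the summit had a median of 51.2% at regained sites, 47.8% at other losses and 48.3% at sites called in all 4 day 0 lists. It was 57.2% at the regained promoter sites and 49.3% at the rest. Of the 286 regained sites without a motif match, 120 were near a start site and 210 (73.4%, interval 68.0 to 78.2) were in both D4 WT lists, against 81.9% (502 of 613, interval 78.6 to 84.7) of those with a match. Promoter losses were regained at similar shares with and without a match, 33.7% (interval 30.02 to 37.5) and 32.4% (interval 27.9 to 37.4).

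**Figure D5:**
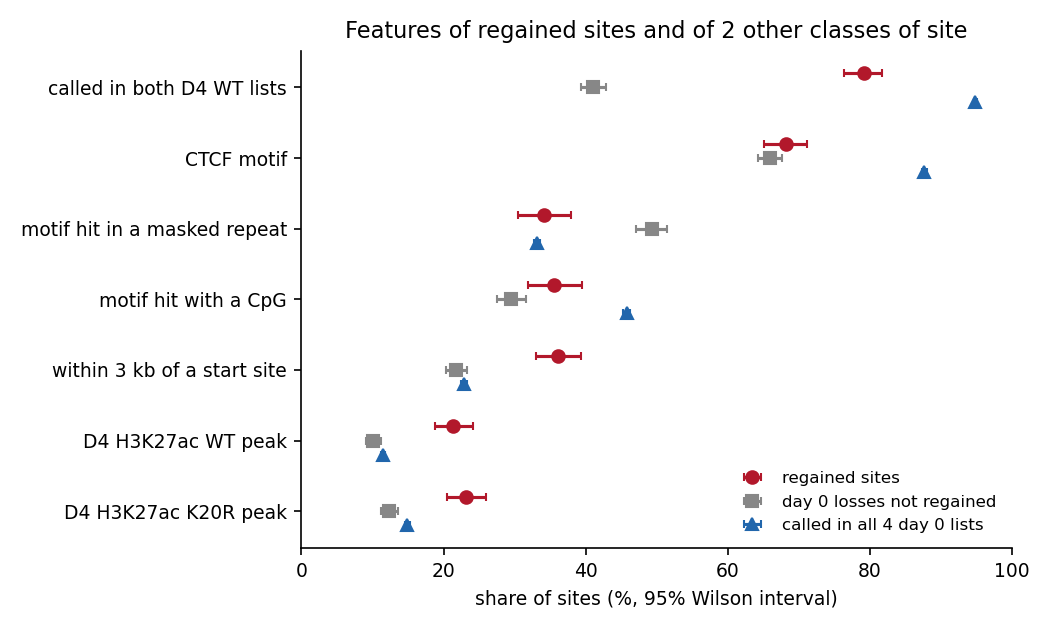
Share of sites (%, with 95% Wilson intervals) that have each feature, for the 899 regained sites, the 3004 other day 0 losses and the sites called in all 4 day 0 lists. The rows on repeats and CpG count sites with a motif match. The regained sites lie to the right of the other losses for D4 WT calls, start sites and H3K27ac, to the left for repeats, and overlap them for the motif.

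Of 6 gene lists, covering pluripotency (20 genes), primitive streak and mesoderm (23), cardiac (24), neural and endoderm (20), CTCF and cohesin (25 annotated) and chromatin and DNA methylation (22), Lhx1 alone had a regained site within 3 kb of a start. Over all 21924 protein-coding genes, 277 (1.26%) had one. The site lay in an intron of Lhx1os, 488 bp from Lhx1, a homeobox gene of the primitive streak and head organiser, on chromosome 11. It held 27 and 15 reads in D0 WT, 15 and 23 in D4 WT and 11 and 11 in D4 K20R, overlapped H3K27ac in WT alone and held no motif match. Within 50 kb, a distance chosen after the values were seen, the lists had 4, 4, 1, 1, 2 and 1 genes with a regained site, and 8.57% of all protein-coding genes did. Those of pluripotency were Sox2, Nanog, Dppa3 and Utf1. The site 20.7 kb from Nanog, a core pluripotency factor, held 22 and 13 reads in D0 WT, 16 and 13 in D4 WT and 10 and 14 in D4 K20R, with H3K27ac in both genotypes. The site 20.9 kb from Sox2, its partner in the stem cell network, held 13 and 9 reads in D0 WT, 10 and 20 in D4 WT and 14 in D4 K20R replicate 2 alone. Those of the primitive streak list were Lhx1, Tbx6, Lefty1 and Fgf8, and the site at Tbx6, a mesoderm transcription factor, was that near Fam57b. The 1 cardiac gene was Myh7, the slow myosin heavy chain, 31.1 kb from the site near Ngdn. The rest were Nes with 2 sites, Rad21l, Cdca5 and Eed, a subunit of the Polycomb repressive complex.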

How the data were processed

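The authors trimmed reads (Trim Galore), aligned them to mm10 (Bowtie2), removed duplicate, low-quality and blacklisted reads, brought the CTCF libraries to equal read numbers and called peaks per library with MACS2. The deposited lists give each peak's fold enrichment at the summit, its −log10 p and −log10 q, the summit position and a display score made by the caller, as the authors deposited them. The score was not used. Read counts per library and the 4 input libraries were not analysed here, so the study's differential test could not be repeated. With 2 libraries per group and calls in place of counts, no test was run.

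Peaks of the 8 CTCF lists overlapping by 1 bp were merged. Reads at a summit were solved from fold enrichment (pseudocount 1) and −log10 p below 200, and a whole number matched within 0.01 for 100% of peaks solved in every list. The top 1000 peaks of each D0 WT list served to learn a motif of 19 bp. Annotation was GENCODE M21. The regained sites, gene lists and alternatives were chosen with earlier results of these data known. Named sites were the 5 strongest in D0 WT, the 5 strongest in both D4 K20R lists, up to 5 in both D4 K20R and neither D4 WT list, those within 3 kb of a listed gene, the 5 strongest promoter sites with H3K27ac in both genotypes, and up to 3 with H3K27ac in 1 genotype, each named by the nearest start site. Sites near listed genes within 50 kb were named after their values were seen. Steps were tested on simulated data. Figures were drawn with matplotlib 3.10.9, and values were computed in Python 3.11.15 with scipy 1.17.1, pandas 2.3.3 and numpy 2.4.6.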

Additional observations from a re-analysis of the deposited data

Results flagged for a closer look

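At 5 regained sites, those near Cad, Ccdc88b, Ramp2, Mir8110 and Gm23500, the genotypes exchanged places between the days: both WT libraries and no K20R library had a call at day 0, and both K20R libraries and no WT library had one at day 4. Both directions were set by the choice of these sites, and the difference between the days was not tested. They are 0.556% of the 899 (interval 0.238 to 1.30), and the same day 4 calls were found at 209 of all 86652 sites (0.241%) and at 109 of the 50765 in both D0 WT lists (0.215%). The summits held 7 to 12 reads in D0 WT and 6 to 16 in D4 K20R.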

How the results depend on the processing

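No paired analysis was possible because no result came from a test. The alternatives were listed in advance, but with earlier results of these data known. Of 143 values over 21 alternatives, 96 stayed inside their interval or kept within 1.5 times the count, while 47 moved further. Some moved by definition. With a D4 K20R library left out, the share in both D4 K20R lists was 100%. With a D4 WT library left out, the share in both D4 WT lists counted the other list alone (85.7% and 84.1%). For the median D0 WT percentile the range used was the middle 50% of sites (18.5 to 34.05). That is a spread between sites, not an interval of the median, so staying inside it says little. The cause was not tested. Lists of one length gave 576 regained sites, 48.2% of the day 0 losses, with 69.97% in both D4 WT lists and 79.0% with a motif. Peaks with a −log10 q of at least 5 gave 623 regained sites, of which only 381 overlapped the regained sites described above. A count that kept within 1.5 times thus did not mean that the same sites were kept. The motif share of these 623 sites was 71.6%. The 1% motif threshold gave 26.9% and a motif within 50 bp 57.8%. Leaving out each library in turn gave 329 to 2218 regained sites, 8.42% to 29.6% of losses, 68.7% to 88.8% in both D4 WT lists and 65.4% to 71.6% with a motif. The count was 329 without D4 K20R replicate 2, 2218 without D0 WT replicate 2, and 1640 and 1647 without D0 K20R replicates 1 and 2. Summits of a few reads and lists of unequal length limit every call.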
